A study of Mus musculus with 11 samples.

Results

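The AP-1 and immediate early genes described here are Jun, Junb, Jund, Fos, Fosb, Fosl2, Atf3, Egr1, Egr2 and Dusp1. They were taken by symbol from a table of 38406 genes, and all 10 were found and all 10 passed the filter on low counts that left 15228 genes tested. They were measured in 11 libraries of 3′ mRNA tags from cerebellar tumours of CD1 mice, labelled as medulloblastoma, in 4 groups of models. In the N1ICD tumours (n = 3) the genes expressed were MYC, Gfi1 and the Notch1 intracellular domain (N1ICD), conditional on Math1-positive cells, the lineage that gives rise to cerebellar granule neurons. In the S100b-cell tumours (n = 3) they were MYC and Gfi1, conditional on S100b-positive cells. MYC with Otx2 in the MYC/Otx2 tumours (n = 3), and MYC with Gfi1 in the MYC/Gfi1 tumours (n = 2), were expressed constitutively, and the series presents these as earlier models of Group 3 medulloblastoma. MYC was common to all 4 groups, and no untransformed cerebellum was analysed here, so each level is relative to another tumour model. No source used here gives the age of the mice.

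AP-1 is a dimer of a Jun protein (Jun, Junb or Jund) with a Fos protein (Fos, Fosb or Fosl2) or with a relative such as Atf3, and it binds DNA as a transcription factor. Most of these genes are immediate early genes, which are induced within minutes of a growth factor, neuronal activity or stress through mitogen-activated kinases and without new protein synthesis. Egr1 and Egr2 encode zinc finger factors of the same early response, and Dusp1 encodes a phosphatase that removes the activating phosphates from those kinases and so limits the response. In the brain these genes are widely used as markers of recently active neurons, and they also respond to handling of tissue.

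Libraries held 2.58 to 3.38 M counts in the N1ICD tumours, 12.77 to 15.19 M in the S100b-cell tumours, 6.97 to 8.33 M in the MYC/Otx2 tumours, and 6.53 and 7.53 M in the MYC/Gfi1 tumours. The N1ICD and the S100b-cell libraries each form a set with its own style of column name, while both constitutive groups share a style, so in the comparisons that cross these sets the set and the model cannot be told apart. Mitochondrially encoded genes took 23.2 to 27.6% of counts in the N1ICD tumours, 14.7 to 18.5% in the S100b-cell tumours, 5.18 to 5.74% in the MYC/Otx2 tumours, and 5.96 and 6% in the MYC/Gfi1 tumours. Single libraries stood apart in lists of cell type markers. N1ICD replicate 2 had a summed level of 6750 CPM (counts scaled to library size) over 9 pericyte and smooth muscle markers, against 277 and 2730 CPM in the other N1ICD libraries and 56.3 to 212 CPM in the remaining groups. MYC/Gfi1 replicate 2 had 4190 CPM over 7 mature granule cell markers and 3200 CPM over 8 neuron markers, against 140 and 756 CPM in MYC/Gfi1 replicate 1. MYC/Gfi1 replicate 1 had 528 CPM over 8 lymphocyte markers, against 0 to 41.8 CPM in the other 10 libraries. N1ICD replicate 1 had 2400 CPM over 8 astroglia markers, against 69 and 172 CPM in the other N1ICD libraries. MYC/Gfi1 replicate 2 had 1450 CPM of these, against 294 CPM in MYC/Gfi1 replicate 1. The S100b-cell libraries had 80.7 to 341 CPM of them and the MYC/Otx2 libraries 145 to 324 CPM. These are bulk samples, so fewer cells of a type and less RNA per cell cannot be told apart.

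Promoter sequences are shown for 4 genes because they carry the short motifs through which signals are known to reach early genes, and because these genes carry the calls that follow. Each run is the RefSeq sequence upstream of the annotated start (GRCm38.p6), 5′ to 3′ on the strand of the gene, and bases are counted backwards from the start. Capitals mark motif matches. They are the CArG box bound by serum response factor, the cyclic AMP element TGACGTCA and its core TGACG, the variant TGACATCA known from the Jun promoter, the AP-1 site TGANTCA, the Egr site GCGNGGGCG and the TATA box TATAAA. Both strands were searched, and the core is contained in the full cyclic AMP element. The Jun run is chr4:95052223-95052472 (minus strand), the Fos run is chr12:85473640-85473889 (plus strand) and the Egr2 run is chr10:67537619-67537868 (plus strand). The Dusp1 run, chr17:26508520-26508722 (minus strand), stops where an annotated first exon begins. Its bases are counted from the RefSeq start at 26508472, which lies beyond the end of the run shown.
Jun: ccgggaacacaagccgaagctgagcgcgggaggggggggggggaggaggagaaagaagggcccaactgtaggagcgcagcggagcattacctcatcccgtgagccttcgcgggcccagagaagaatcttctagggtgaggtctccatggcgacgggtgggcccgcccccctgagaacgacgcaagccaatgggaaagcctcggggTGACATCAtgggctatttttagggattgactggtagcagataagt
Fos: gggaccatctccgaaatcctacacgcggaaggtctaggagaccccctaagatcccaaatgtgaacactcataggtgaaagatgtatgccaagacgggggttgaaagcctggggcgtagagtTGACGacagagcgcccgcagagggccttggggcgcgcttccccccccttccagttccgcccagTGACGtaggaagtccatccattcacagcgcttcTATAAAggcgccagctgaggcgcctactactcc
Egr2: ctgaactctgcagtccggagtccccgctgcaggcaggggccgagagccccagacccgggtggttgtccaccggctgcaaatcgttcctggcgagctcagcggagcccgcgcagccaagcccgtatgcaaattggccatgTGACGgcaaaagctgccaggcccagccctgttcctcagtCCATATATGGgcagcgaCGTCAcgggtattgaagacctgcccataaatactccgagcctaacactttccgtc
Dusp1: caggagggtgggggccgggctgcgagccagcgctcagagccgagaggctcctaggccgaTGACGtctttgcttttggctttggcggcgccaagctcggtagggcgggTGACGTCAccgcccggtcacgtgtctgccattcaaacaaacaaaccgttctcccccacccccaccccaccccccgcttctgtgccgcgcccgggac

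In Jun the capitals mark TGACATCA at 45 to 38 bases before the start. In Fos they mark TGACG at 129 to 125 and at 66 to 62 bases, and TATAAA at 33 to 28 bases. In Egr2 they mark the CArG box at 72 to 63 bases, TGACG at 111 to 107 bases, and TGACG on the opposite strand at 55 to 51 bases. In Dusp1 they mark the full element TGACGTCA at 143 to 136 bases and a further TGACG at 191 to 187 bases. Over the 9 promoters that were searched here, the CArG box was found in 1, TGACGTCA in 1, its core in 6, TGACATCA in 1, the Egr site in 2 (Fosb and Fosl2), the TATA box in 1 and the AP-1 site in 0. The promoter of Egr1 was not searched. The RefSeq starts used for Jund (70697739) and Fosl2 (32136472) lie away from the starts of their principal transcripts in GENCODE (70698949 and 32135801), so their windows do not adjoin those starts. Among 32851 promoters of the same length, the CArG box was found in 1.47%, TGACGTCA in 1.55%, TGACG in 17.8%, TGACATCA in 2.93%, TGANTCA in 6.75%, GCGNGGGCG in 4.7% and TATAAA in 12.4%. These matches describe letters within 250 bases and are not evidence of binding.

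Across the 6 comparisons between groups, the genes were mostly low in the MYC/Otx2 tumours. A test for any difference among the 4 groups was passed by 7 of the 10 genes, Jun, Junb, Jund, Atf3, Egr1, Egr2 and Dusp1 (edgeR quasi-likelihood test, Benjamini-Hochberg adjusted p from 0.00533 for Jund to 0.029 for Junb), against 28.4% of all genes tested. Fos, Fosl2 and Fosb did not pass it (edgeR adjusted p = 0.0798, 0.0611 and 0.839). A call here means an adjusted p under 0.05 over the 15228 genes, and a log2 change is on the CPM scale, with its SE. Whether the libraries of a group are separate animals is not stated in the labels, and p-values measure only the spread between these libraries, which may be technical.

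**Figure D1:**
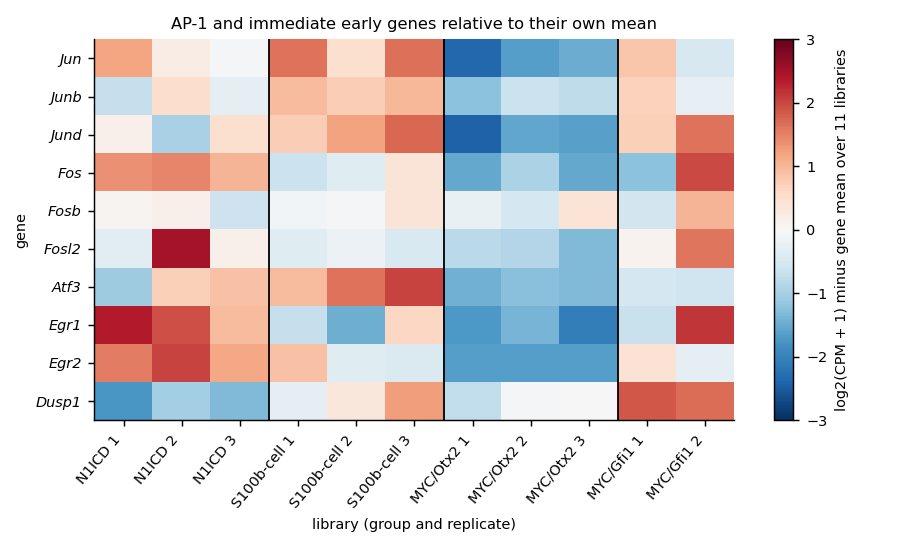
Levels of the 10 genes (rows) in the 11 libraries (columns, grouped by model with black lines between groups), as log2(CPM + 1) minus the mean of each gene over all libraries, red above and blue below that mean. The MYC/Otx2 columns are blue for 8 of the 10 genes, while Fosb and Dusp1 lie closer to their means there.

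In the N1ICD tumours set against the MYC/Otx2 tumours, 7 of the 10 genes rose and 0 fell, where 12% of all genes tested rose and 9.76% fell. Those that rose were Jun, Jund, Fos, Fosl2, Atf3, Egr1 and Egr2, and the median log2 change over the 10 genes was 2.37, against 0.14 over all genes. This count was 4 without N1ICD replicate 2 (Jun, Jund, Egr1 and Egr2), 3 without MYC/Otx2 replicate 1 (Jun, Egr1 and Egr2) and 3 without MYC/Otx2 replicate 3 (Jun, Jund and Egr2). Over all genes 21.8% were called in either direction with all libraries, and 14.8%, 10.9% and 11.3% in these fits, in the same order. In the S100b-cell tumours set against the MYC/Otx2 tumours, 5 genes rose (Jun, Junb, Jund, Atf3 and Egr2) and 0 fell, where 10% of all genes rose and 7.89% fell. The median log2 change over the 10 genes was 2.49, against 0.17 over all genes. These 2 comparisons and the next share the MYC/Otx2 libraries.

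In the MYC/Otx2 tumours set against the MYC/Gfi1 tumours, which share a library set, 4 of the 10 genes fell (Jun, Jund, Egr2 and Dusp1) and 0 rose, where 3.03% of all genes fell and 2.43% rose. All 10 log2 changes were negative, where 44.6% of all genes had a positive one, with a median of -2.24 against -0.14 over all genes. In 8 of the 10 every MYC/Otx2 library lay below both MYC/Gfi1 libraries, where 23.6% of all genes did. Over all genes 5.46% were called there with all libraries, and 0.573%, 1.53% and 0.43% without MYC/Otx2 replicate 1, 2 and 3. The count of the 10 genes likewise rests on few libraries. It was 0 without MYC/Otx2 replicate 1 or replicate 3, 1 without MYC/Otx2 replicate 2 (Jund) or MYC/Gfi1 replicate 2 (Egr2), and 2 without N1ICD replicate 3 or S100b-cell replicate 2 (Jund and Egr2 in both). It was 8 by DESeq2, which added Junb, Fos, Fosl2 and Egr1 and called 16% of the genes it tested. It was 1 in a fit of the 2 groups alone, which called 2.71% of the genes tested.

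In the other 3 comparisons few or none of the genes were called. In the N1ICD tumours set against the MYC/Gfi1 tumours 1 gene, Dusp1, fell and 0 rose, where 6.05% of all genes fell and 5.47% rose. The count was 0 in a fit of the 2 groups alone, which called only 0.122% of the genes tested and so could keep few calls of any gene. In the S100b-cell tumours set against the MYC/Gfi1 tumours edgeR called 0 genes, where it called 4.35% of all genes (2.34% higher and 2.01% lower), and 2 of the 10 had an unadjusted p under 0.05, against 23.7% of all genes. DESeq2 and limma-voom each called 1 gene there, Atf3, as did edgeR without N1ICD replicate 1, where they called 13.7%, 9.14% and 7.15% of the genes each tested. In the N1ICD tumours set against the S100b-cell tumours edgeR called 0 genes, where it called 1.21% of all genes (0.808% higher and 0.407% lower). There 7 of the 10 had an unadjusted p under 0.05, against 18.7% of all genes. DESeq2 called Egr1 and Dusp1 and limma-voom called 0, where they called 8.98% and 0.834% of the genes each tested. Between these groups the N1ICD libraries lay above all S100b-cell libraries for 3 genes (Fos, Egr1 and Egr2), where 11% of all genes did, and below them for 4 (Junb, Jund, Atf3 and Dusp1), where 15.1% did.

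**Figure D2:**
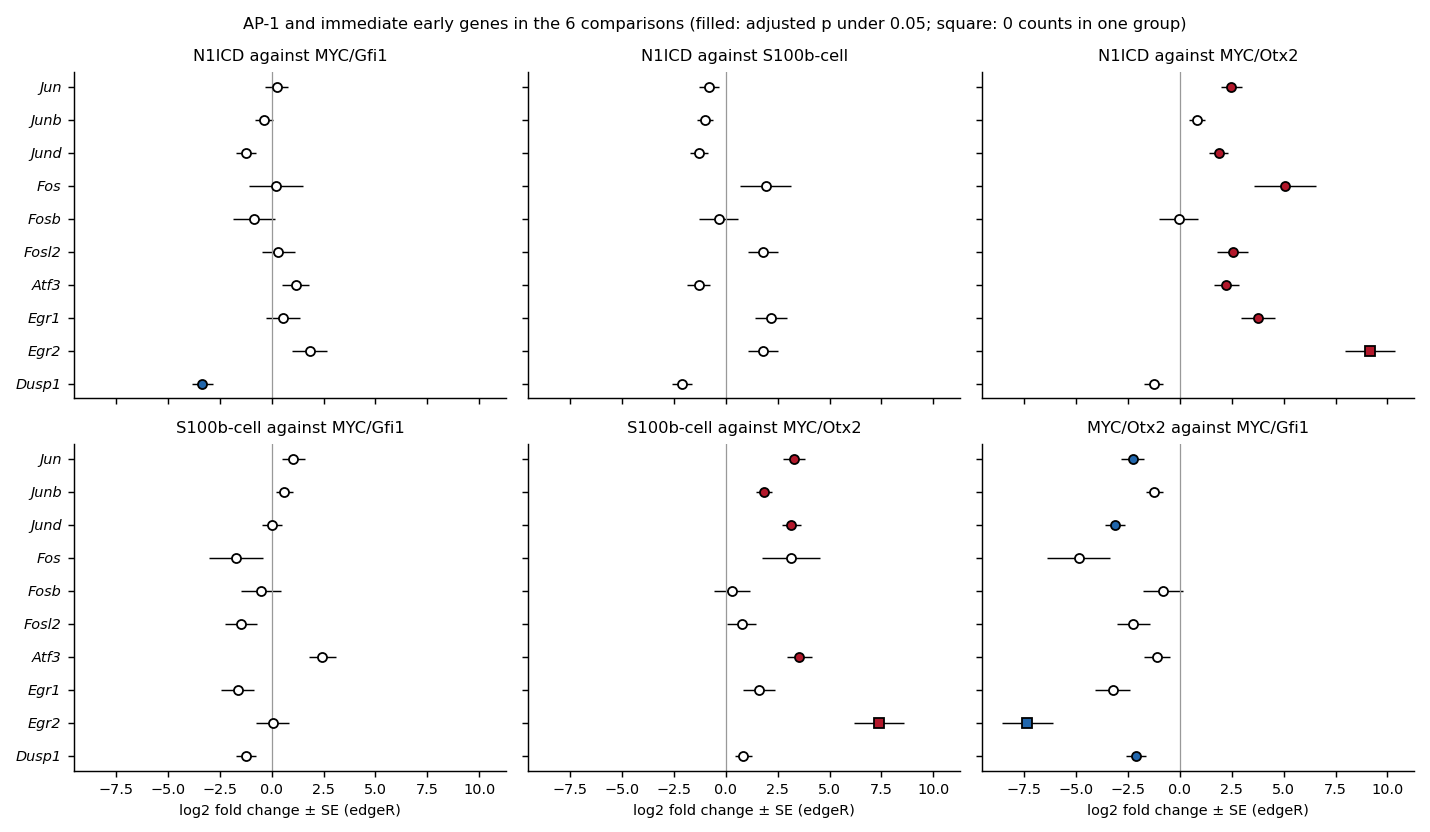
Log2 fold changes with their SE (x axis) of the 10 genes (rows) in the 6 comparisons (panels, first-named tumours over second-named), from edgeR. Filled points passed an adjusted p under 0.05 and squares mark Egr2 against the MYC/Otx2 tumours, where it had 0 counts, so that the plotted value rests on a prior count and the text gives a bound. Filled points lie to the right of 0 in both panels set against the MYC/Otx2 tumours and to the left of 0 for the MYC/Otx2 tumours against the MYC/Gfi1 tumours.

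The Jun family supplies the partner that every AP-1 dimer of this class needs. Jun (chr4:95049034-95052222, minus strand, mm10), the founding member, had 62.2, 31.0 and 26.0 CPM in the N1ICD tumours, 84.5, 37.4 and 85.1 CPM in the S100b-cell libraries, 4.38, 7.85 and 8.90 CPM in the MYC/Otx2 tumours, and 48.1 and 18.9 CPM in the MYC/Gfi1 tumours. The MYC/Otx2 libraries all lay below every other library, and the ranges of the remaining groups overlapped. Jun rose in the N1ICD tumours by a log2 change of 2.49 ± 0.52 and in the S100b-cell tumours by 3.29 ± 0.54, each against the MYC/Otx2 tumours (SE, edgeR adjusted p = 0.0104 and 0.00472). It kept both calls without any single library and under the other settings tried. Jun fell by 2.25 ± 0.55 on the log2 scale in the MYC/Otx2 tumours against the MYC/Gfi1 tumours (SE, edgeR adjusted p = 0.0455). That call was lost without any one of 9 libraries, the exceptions being N1ICD replicates 1 and 2, with edgeR adjusted p between 0.0517 and 0.139 and a log2 change between -2.76 and -1.4. It was also lost with upper-quartile scaling, without the mitochondrially encoded genes, in a fit of the 2 groups alone and by limma-voom, and the adjusted p over all alternatives ran from 0.00407 to 0.139. The TGACATCA variant shown above lies in the Jun promoter, and the antisense gene Junos overlaps Jun outside its last 500 bases.

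Jund (chr8:70698949-70700616, plus strand), the family member that is usually present in resting cells as well, had 78.5, 35.6 and 99.4 CPM in the N1ICD tumours, 118, 164 and 235 CPM in the S100b-cell libraries, 12.3, 23.4 and 22.2 CPM in the MYC/Otx2 tumours, and 116 and 220 CPM in the MYC/Gfi1 tumours. The MYC/Otx2 libraries were again the lowest, the N1ICD libraries came next without overlap, and the S100b-cell and MYC/Gfi1 libraries overlapped above them. Against the MYC/Otx2 tumours, Jund rose by 1.88 ± 0.45 in the N1ICD tumours and by 3.16 ± 0.46 in the S100b-cell tumours (log2, SE, edgeR adjusted p = 0.0169 and 0.00292). It fell by 3.12 ± 0.49 in the MYC/Otx2 tumours against the MYC/Gfi1 tumours (log2, SE, edgeR adjusted p = 0.0136). Without MYC/Otx2 replicate 1 the rise in the N1ICD tumours had an edgeR adjusted p of 0.064, with a range of 0.00115 to 0.064 over all alternatives. The fall had an edgeR adjusted p of 0.0559 without MYC/Otx2 replicate 1, 0.0594 without MYC/Otx2 replicate 3 and 0.0517 without MYC/Gfi1 replicate 2, with a range of 1.07e-06 to 0.0594. The difference between the N1ICD and the MYC/Gfi1 tumours did not pass (edgeR adjusted p = 0.11).

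Junb (chr8:84974484-84978718, minus strand), which often restrains growth where Jun promotes it, had 13.7, 33.1 and 18.3 CPM in the N1ICD tumours, 44.9, 38.6 and 46.4 CPM in the S100b-cell libraries, 9.04, 14.2 and 12.9 CPM in the MYC/Otx2 tumours, and 37.3 and 18.9 CPM in the MYC/Gfi1 tumours. The S100b-cell libraries were the highest of all 11, and the N1ICD libraries overlapped those of the MYC/Otx2 and the MYC/Gfi1 tumours. Junb rose in the S100b-cell tumours by a log2 change of 1.84 ± 0.39 against the MYC/Otx2 tumours (SE, edgeR adjusted p = 0.0132), a call lost without MYC/Otx2 replicate 1 (edgeR adjusted p = 0.0535, the highest over the alternatives, of which the lowest gave 2.22e-04). It did not pass in the N1ICD tumours against the MYC/Otx2 tumours (edgeR adjusted p = 0.141) or in the MYC/Otx2 tumours against the MYC/Gfi1 tumours (edgeR adjusted p = 0.103). An exon of Prdx2 on the opposite strand lies within the last 500 bases of the Junb gene model, and no source used here gives the strand setting of the counting, so the Junb counts are uncertain.

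**Figure D3:**
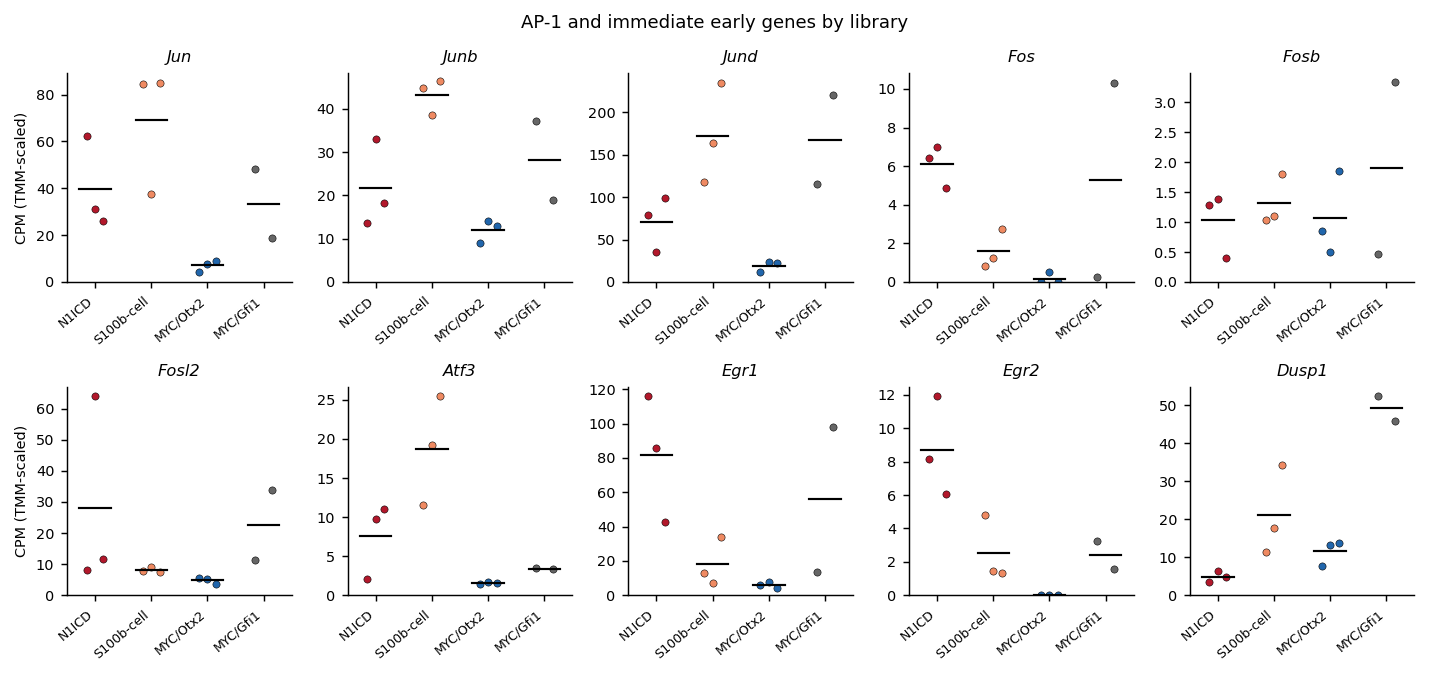
CPM of each of the 10 genes (panels, y axes differ) in every library, grouped by model, with 1 point per library and a horizontal bar at the group mean. The MYC/Otx2 points lie near the bottom of the panels for Jun, Jund, Fos, Atf3, Egr1 and Egr2, the highest Fosl2 point is N1ICD replicate 2, and the 2 MYC/Gfi1 points lie far apart for Fos and Egr1.

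The Fos family supplies the partner that, in the case of Fos and Fosb, is nearly absent from resting cells. Fos (chr12:85473890-85477273, plus strand) had 6.43, 6.97 and 4.87 CPM in the N1ICD tumours, 0.841, 1.24 and 2.74 CPM in the S100b-cell libraries, 0, 0.498 and 0 CPM in the MYC/Otx2 tumours, and 0.233 and 10.3 CPM in the MYC/Gfi1 tumours. These are few molecules, with 12 to 20 counts per N1ICD library, 0, 4 and 0 counts in the MYC/Otx2 libraries, and 2 and 71 counts in the MYC/Gfi1 libraries. The N1ICD libraries lay close together and above all S100b-cell and MYC/Otx2 libraries, and between the 2 MYC/Gfi1 libraries. Fos rose in the N1ICD tumours by a log2 change of 5.06 ± 1.49 against the MYC/Otx2 tumours (SE, edgeR adjusted p = 0.0366). The call was lost without any one of N1ICD replicates 1, 2 and 3, MYC/Otx2 replicates 1 and 3, and S100b-cell replicate 2, with edgeR adjusted p between 0.053 and 0.105, and the lowest adjusted p over the alternatives was 0.0014. It passed in none of the other comparisons, with an edgeR adjusted p of 0.143 in the S100b-cell tumours and of 0.082 for the MYC/Otx2 tumours against the MYC/Gfi1 tumours. Of the 15228 genes tested, 86.2% varied less than Fos within groups, by the pooled SD of log2 CPM, which was 1.56 for Fos and had a median of 0.65 over all genes.

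Fosl2 (chr5:32135801-32157842, plus strand), a Fos relative that stays on longer after a stimulus, had 8.15, 64.1 and 11.8 CPM in the N1ICD tumours, 7.96, 9.13 and 7.35 CPM in the S100b-cell libraries, 5.51, 5.23 and 3.58 CPM in the MYC/Otx2 tumours, and 11.4 and 33.7 CPM in the MYC/Gfi1 tumours. The value in N1ICD replicate 2 was the highest of the 11, and the other N1ICD libraries lay in or just above the range of the S100b-cell libraries. Fosl2 rose in the N1ICD tumours by a log2 change of 2.56 ± 0.75 against the MYC/Otx2 tumours (SE, edgeR adjusted p = 0.0362). Without N1ICD replicate 2 the log2 change was 1.07, with an edgeR adjusted p of 0.186. The call was also lost without MYC/Otx2 replicate 1, 2 or 3 or S100b-cell replicate 2 or 3, with edgeR adjusted p between 0.0521 and 0.112, and by limma-voom and in a fit of the 2 groups alone (0.00366 to 0.186 over all alternatives). N1ICD replicate 2 is the library with the summed pericyte and smooth muscle marker level of 6750 CPM, whose part in the Fosl2 value was not tested. Fosb (chr7:19302696-19310051, minus strand), another relative of Fos, ranged from 0.406 to 1.39 CPM in the N1ICD tumours and 1.04 to 1.8 CPM in the S100b-cell tumours. It ranged from 0.498 to 1.85 CPM in the MYC/Otx2 tumours, and was at 0.466 and 3.34 CPM in the MYC/Gfi1 tumours. Its libraries overlapped between all groups, and it was called in none of the comparisons (edgeR adjusted p at least 0.602 in those that involve the MYC/Otx2 tumours).

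Atf3 (chr1:191170296-191218039, minus strand), a dimer partner of Jun proteins that is induced by many stresses, had 2.14, 9.76 and 11 CPM in the N1ICD tumours, 11.6, 19.2 and 25.5 CPM in the S100b-cell libraries, 1.41, 1.74 and 1.62 CPM in the MYC/Otx2 tumours, and 3.5 and 3.34 CPM in the MYC/Gfi1 tumours. The S100b-cell libraries were the 3 highest, the MYC/Otx2 libraries were the 3 lowest, and the N1ICD libraries spanned the MYC/Gfi1 values. Atf3 rose against the MYC/Otx2 tumours by a log2 change of 3.54 ± 0.60 in the S100b-cell tumours and of 2.25 ± 0.59 in the N1ICD tumours (SE, edgeR adjusted p = 0.0056 and 0.0245). The S100b-cell call held without any single library. The N1ICD call was lost by limma-voom (adjusted p = 0.139) and without N1ICD replicate 2 or 3 or MYC/Otx2 replicate 1, 2 or 3 (edgeR adjusted p between 0.0652 and 0.0784). Over all alternatives its adjusted p ran from 0.00155 to 0.139. In the S100b-cell tumours against the MYC/Gfi1 tumours the log2 change was 2.45 ± 0.67 with every S100b-cell library above both MYC/Gfi1 libraries, and it did not pass (SE, edgeR adjusted p = 0.0634). There it passed by DESeq2 (adjusted p = 0.00301), by limma-voom (adjusted p = 0.0471) and by edgeR without N1ICD replicate 1 (adjusted p = 0.0232), within a range of 0.00301 to 0.236 over the alternatives.

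Egr1 (chr18:34859823-34864984, plus strand), a zinc finger factor that shares its inducing signals with Fos, had 116, 85.8 and 42.6 CPM in the N1ICD tumours, 12.9, 7.12 and 33.9 CPM in the S100b-cell libraries, 5.79, 7.60 and 4.39 CPM in the MYC/Otx2 tumours, and 13.3 and 98.3 CPM in the MYC/Gfi1 tumours. The N1ICD libraries lay above all S100b-cell and MYC/Otx2 libraries, while the MYC/Gfi1 libraries lay one within the S100b-cell and one within the N1ICD range. Egr1 rose in the N1ICD tumours by a log2 change of 3.78 ± 0.82 against the MYC/Otx2 tumours (SE, edgeR adjusted p = 0.0122), with an edgeR adjusted p of 0.0507 without MYC/Otx2 replicate 3, the highest of a range that began at 1.35e-05. Against the S100b-cell tumours the log2 change in the N1ICD tumours was 2.18 ± 0.76, which did not pass by edgeR (SE, adjusted p = 0.169) and passed by DESeq2 (adjusted p = 0.0377, the lowest of a range that ended at 0.384). In the MYC/Otx2 tumours against the MYC/Gfi1 tumours it was -3.23 ± 0.84 and did not pass (SE, edgeR adjusted p = 0.0523). That value passed by DESeq2 (adjusted p = 0.00249) and by edgeR without N1ICD replicate 1 (adjusted p = 0.0482) or without MYC/Gfi1 replicate 1 (adjusted p = 0.0169, log2 change -4.03), while without MYC/Gfi1 replicate 2 the log2 change was -1.16 (edgeR adjusted p = 0.433, the highest over the alternatives). MYC/Gfi1 replicate 2, the library with the high Egr1 and Fos values, is the one with 4190 CPM of mature granule cell markers, whose part in these values was not tested. N1ICD replicate 1, with 116 CPM of Egr1, is the library with 2400 CPM of astroglia markers, whose part was not tested either.

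Egr2 (chr10:67535475-67542188, plus strand), the Egr factor best known for hindbrain patterning and for myelin formation by Schwann cells, had 8.15, 11.9 and 6.09 CPM in the N1ICD tumours, 4.79, 1.45 and 1.33 CPM in the S100b-cell tumours, 0 CPM in all 3 MYC/Otx2 libraries, and 3.26 and 1.60 CPM in the MYC/Gfi1 tumours. It had 15 to 34 counts per N1ICD library, 17 to 74 per S100b-cell library, 0 in each MYC/Otx2 library, and 28 and 11 in the MYC/Gfi1 libraries. Every N1ICD library lay above every other library, and the S100b-cell and MYC/Gfi1 libraries overlapped. Set against a floor of 3 counts over the MYC/Otx2 group, which is 0.126 CPM and covers counting error only, Egr2 was at least 68.9-fold higher in the N1ICD tumours and at least 20-fold higher in the S100b-cell tumours (edgeR adjusted p = 0.00267 and 0.00703), and both calls held under every alternative tried. Against the MYC/Gfi1 tumours it was at least 19.3-fold lower in the MYC/Otx2 tumours (edgeR adjusted p = 0.0222). That last call was lost in a fit of the 2 groups alone (adjusted p = 0.0955) and by edgeR without MYC/Otx2 replicate 1, 2 or 3 (adjusted p between 0.053 and 0.0729), and the lowest adjusted p over the alternatives was 1.47e-04. The higher level in the N1ICD tumours than in the MYC/Gfi1 tumours did not pass (edgeR adjusted p = 0.187). Of the 9 promoters searched, within 250 bases and without that of Egr1, the Egr2 promoter shown above is the one in which the CArG box was found.

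Dusp1 (chr17:26505590-26562128, minus strand), the phosphatase that feeds back on the kinases upstream of AP-1, was lowest in the N1ICD tumours and highest in the MYC/Gfi1 tumours. It had 3.43, 6.28 and 4.87 CPM in the N1ICD tumours, 11.3, 17.6 and 34.4 CPM in the S100b-cell libraries, 7.77, 13.3 and 13.8 CPM in the MYC/Otx2 tumours, and 52.5 and 46.0 CPM in the MYC/Gfi1 tumours. The N1ICD libraries were the 3 lowest and the MYC/Gfi1 libraries the 2 highest, with the S100b-cell and MYC/Otx2 libraries overlapping between them. Dusp1 fell by 3.33 ± 0.51 on the log2 scale in the N1ICD tumours and by 2.08 ± 0.48 in the MYC/Otx2 tumours, each against the MYC/Gfi1 tumours (SE, edgeR adjusted p = 0.00682 and 0.0386). The N1ICD call held without any single library and was lost in a fit of the 2 groups alone (edgeR adjusted p = 0.0761, the highest of a range that began at 6.01e-07). That fit called 0.122% of the genes tested. The MYC/Otx2 call was lost without any one of 7 libraries, MYC/Otx2 replicates 1 to 3, both MYC/Gfi1 replicates, N1ICD replicate 3 and S100b-cell replicate 2, with edgeR adjusted p between 0.0513 and 0.118, and in a fit of the 2 groups alone (0.0511, with 0.00175 the lowest over the alternatives). Against the S100b-cell tumours the log2 change in the N1ICD tumours was -2.11 ± 0.47 (SE, edgeR adjusted p = 0.0633), which passed without a filter on low counts (edgeR adjusted p = 0.0431) and by DESeq2 (adjusted p = 0.00313), within a range up to 0.267. The N1ICD libraries also lay below all MYC/Otx2 libraries, without passing (edgeR adjusted p = 0.0771). The Dusp1 promoter shown above holds the full element TGACGTCA. The gene models of Jund, Atf3 and Dusp1 overlap other annotated genes, none of which has an exon in their last 500 bases.

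The genes differed in how far the order of the groups can be read. By mean CPM, Jun ran S100b-cell (69 ± 27.4), N1ICD (39.7 ± 19.6), MYC/Gfi1 (33.5 ± 20.7) and MYC/Otx2 (7.04 ± 2.36 CPM, SD, n = 3 each and n = 2 for MYC/Gfi1), and of these neighbours MYC/Otx2 and MYC/Gfi1 passed a test. Atf3 ran S100b-cell (18.7 ± 6.96), N1ICD (7.62 ± 4.78), MYC/Gfi1 (3.42 ± 0.111) and MYC/Otx2 (1.59 ± 0.167 CPM, SD, same n), and no neighbouring groups in that order passed a test. Egr1 ran N1ICD (81.4 ± 36.8), MYC/Gfi1 (55.8 ± 60.1), S100b-cell (18 ± 14.1) and MYC/Otx2 (5.93 ± 1.61 CPM, SD, same n), and likewise no neighbours passed. Dusp1 ran MYC/Gfi1 (49.2 ± 4.54), S100b-cell (21.1 ± 12), MYC/Otx2 (11.6 ± 3.34) and N1ICD (4.86 ± 1.42 CPM, SD, same n), with no neighbours passing. By library, S100b-cell replicate 3 was the highest of the 11 for 4 of the 10 genes, and N1ICD replicate 2 and MYC/Gfi1 replicate 2 for 2 each. MYC/Otx2 replicate 1 was the lowest, or level with the lowest, for 6 genes and MYC/Otx2 replicate 3 for 4.

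The genes whose pattern over the 11 libraries was most like that of Jun, by the root mean square difference of centred log2 CPM, were Trp53inp1 (0.47), Pde3b (0.51) and Nek1 (0.53), where Jun itself had an SD of 1.43. Nearest to Egr1 (SD 1.74) were Sparc (0.53), Mical2 (0.62) and Mlph (0.63). Nearest to Atf3 (SD 1.49) were Inf2 (0.54), Gng11 (0.55) and Igsf6 (0.58). Among the genes nearest to Fos (SD 2.31) were Lancl3 (0.83) and Zfp703 (0.91). The points share libraries and depth, so these are descriptions.

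Among the kinases and factors that act upstream of the early genes, those highest in the MYC/Otx2 tumours included Srf, Elk1 and Mapk8. Of 22 tested, 2 rose and 5 fell in the N1ICD tumours against the MYC/Otx2 tumours, and 0 rose and 5 fell in the S100b-cell tumours against the MYC/Otx2 tumours. Over all genes 12% rose and 9.76% fell in the N1ICD tumours and 10% rose and 7.89% fell in the S100b-cell tumours, so the 2 rises were near the share of all genes. Against the MYC/Gfi1 tumours, 0 rose and 3 fell in the N1ICD tumours, 0 rose and 1 fell in the S100b-cell tumours, and 1 rose and 0 fell in the MYC/Otx2 tumours. Over all genes 6.05% fell in the N1ICD tumours, 2.01% fell in the S100b-cell tumours and 2.43% rose in the MYC/Otx2 tumours. DESeq2 called 5 falls in each of the N1ICD and the S100b-cell tumours and 3 rises in the MYC/Otx2 tumours, where it called 20.9%, 13.7% and 16% of the genes it tested. Against the MYC/Otx2 tumours the median log2 change of the 22 genes was -0.10 in the N1ICD tumours, against 0.14 over all genes, and -0.40 in the S100b-cell tumours, against 0.17 over all genes. The falls against the MYC/Otx2 tumours numbered 3 in the N1ICD tumours without MYC/Otx2 replicate 2 or 3 and 8 without MYC/Gfi1 replicate 1 or 2, and 3 in the S100b-cell tumours without S100b-cell replicate 2 or 3 or any MYC/Otx2 library. The 2 rises numbered 0 or 1 without any one N1ICD or MYC/Otx2 library other than N1ICD replicate 3, or without S100b-cell replicate 2 or 3. Against the MYC/Gfi1 tumours, the 3 falls in the N1ICD tumours numbered 1 without N1ICD replicate 2 and 5 without MYC/Gfi1 replicate 1, and the single fall in the S100b-cell tumours was lost without MYC/Gfi1 replicate 2 or any one S100b-cell library, with 5 falls without MYC/Gfi1 replicate 1. Without N1ICD replicate 1 edgeR called 1 rise in the S100b-cell tumours against the MYC/Otx2 tumours. The single rise in the MYC/Otx2 tumours was lost without MYC/Otx2 replicate 3 or MYC/Gfi1 replicate 2, and 2 rose without N1ICD replicate 1 or 3 and 3 rose and 1 fell without MYC/Gfi1 replicate 1. Srf, the serum response factor that binds the CArG box, had 77.2, 79.1 and 84.4 CPM in the N1ICD tumours, 108, 113 and 122 CPM in the S100b-cell libraries, 569, 429 and 319 CPM in the MYC/Otx2 tumours, and 261 and 175 CPM in the MYC/Gfi1 tumours. The order of the groups for Srf, with no overlap between any of them, had the MYC/Otx2 libraries highest. Srf fell by 2.45 ± 0.25 in the N1ICD tumours and by 1.94 ± 0.24 in the S100b-cell tumours against the MYC/Otx2 tumours (log2, SE, edgeR adjusted p = 6.39e-04 and 0.00169).

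Elk1, the partner of Srf that is phosphorylated by these kinases, had 13.7, 13.2 and 14.6 CPM in the N1ICD tumours, 10.9, 13.1 and 13.4 CPM in the S100b-cell libraries, 77.3, 84.1 and 100 CPM in the MYC/Otx2 tumours, and 30.8 and 28.2 CPM in the MYC/Gfi1 tumours. It fell by 2.65 ± 0.23 in the N1ICD tumours and by 2.8 ± 0.23 in the S100b-cell tumours against the MYC/Otx2 tumours (log2, SE, edgeR adjusted p = 3.85e-04 and 3.64e-04). The N1ICD and S100b-cell libraries of Elk1 overlapped, and all lay below both constitutive groups. Mapk8, which encodes the Jun kinase JNK, averaged 54.5 ± 14.3 CPM in the N1ICD tumours, 92.4 ± 9.69 CPM in the S100b-cell tumours, 243 ± 45.6 CPM in the MYC/Otx2 tumours (SD, n = 3 each) and 114 ± 25.7 CPM in the MYC/Gfi1 tumours (SD, n = 2). It fell by 2.16 ± 0.26 and 1.39 ± 0.25 in the N1ICD and the S100b-cell tumours, each against the MYC/Otx2 tumours (log2, SE, edgeR adjusted p = 0.00107 and 0.00651). The 3 genes named here as falling kept those calls against the MYC/Otx2 tumours under every setting tried.

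The feedback inhibitors of ERK signalling, other than Dusp1 itself, gave few calls. Of 13 tested, 3 fell and 0 rose in the N1ICD tumours against the MYC/Gfi1 tumours, and 3 fell and 1 rose in the N1ICD tumours against the MYC/Otx2 tumours, where 6.05% and 9.76% of all genes fell and 5.47% and 12% rose. In the S100b-cell tumours against the MYC/Otx2 tumours 1 fell, where 7.89% of all genes fell, and in the MYC/Otx2 tumours against the MYC/Gfi1 tumours 1 rose, where 2.43% rose. A single call among 13 is near the shares of 12% and 7.89%. The falls in the N1ICD tumours numbered 1 against the MYC/Gfi1 tumours without N1ICD replicate 2 or 3 or MYC/Gfi1 replicate 2, and 1 against the MYC/Otx2 tumours without any one of the N1ICD or MYC/Otx2 libraries. Without either MYC/Gfi1 library 2 fell in the S100b-cell tumours against the MYC/Otx2 tumours, and the rise in the MYC/Otx2 tumours was lost without any one library other than N1ICD replicates 1 and 2. Dusp14, a small dual specificity phosphatase, averaged 7.47 ± 5.43 CPM in the N1ICD tumours, 8.52 ± 1.9 CPM in the S100b-cell tumours, 96.2 ± 14.1 CPM in the MYC/Otx2 tumours (SD, n = 3 each) and 24 ± 3.07 CPM in the MYC/Gfi1 tumours (SD, n = 2). It fell by 3.69 ± 0.46 in the N1ICD tumours and by 3.5 ± 0.45 in the S100b-cell tumours against the MYC/Otx2 tumours (log2, SE, edgeR adjusted p = 0.00123 and 0.00177), under every setting tried. Dusp4, a nuclear phosphatase, was the gene that rose, with 0, 10.5 and 6.49 CPM in the N1ICD libraries and 0 in all 3 MYC/Otx2 libraries, so that the groups touched at 0, and that call was lost without N1ICD replicate 2 or 3, while 2 rose without N1ICD replicate 1.

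Other AP-1 family members were called in few comparisons. Of 8 tested, 1 rose in the N1ICD tumours against the MYC/Otx2 tumours (Batf3), where 12% of all genes rose, so that 1 of 8 is near that share. In the S100b-cell tumours 1 fell against each of the constitutive groups (Mafg in both). Over all genes 7.89% fell there against the MYC/Otx2 tumours and 2.01% against the MYC/Gfi1 tumours. In the other 3 comparisons edgeR called 0, where it called 1.21 to 11.5% of all genes. An unadjusted p under 0.05 was found there for 3 at most, and DESeq2 called up to 2 and limma-voom 0. Single members were called there without N1ICD replicate 1, MYC/Otx2 replicate 3 or MYC/Gfi1 replicate 1. Batf3, a partner of Jun proteins best known in dendritic cells, averaged 18.9 ± 11.9 CPM in the N1ICD tumours (SD, n = 3), and its log2 change of 4 ± 1.07 (SE, edgeR adjusted p = 0.0267) was lost without N1ICD replicate 2 or 3 or MYC/Otx2 replicate 2. Both Mafg calls were lost without any one of the S100b-cell libraries or without MYC/Otx2 replicate 1 or 2, and that against the MYC/Gfi1 tumours also without MYC/Gfi1 replicate 2. Atf2, a Jun partner that is activated by phosphorylation, was the most abundant member that was not called.

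Some of the other immediate early genes were also low in the MYC/Otx2 tumours. Of 40 tested, 13 rose and 1 fell in the N1ICD tumours against the MYC/Otx2 tumours, where 12% of all genes rose and 9.76% fell, and their median log2 change was 0.99, against 0.14 over all genes. In the S100b-cell tumours against the MYC/Otx2 tumours 7 rose and 0 fell, where 10% of all genes rose and 7.89% fell, with a median of 1.2 against 0.17. In the MYC/Otx2 tumours against the MYC/Gfi1 tumours 0 rose and 4 fell, where 2.43% of all genes rose and 3.03% fell, with a median of -0.91 against -0.14. In the N1ICD tumours 2 rose and 2 fell against the MYC/Gfi1 tumours, where 5.47% of all genes rose and 6.05% fell, so these counts were near the share of all genes. In the N1ICD tumours 0 rose and 2 fell against the S100b-cell tumours, where 0.808% of all genes rose and 0.407% fell. In the S100b-cell tumours edgeR called 0 against the MYC/Gfi1 tumours, where it called 4.35% of all genes, with an unadjusted p under 0.05 for 5, against 23.7% of all genes. There DESeq2 called 3 lower, limma-voom called 0, and edgeR called 1 higher and 2 lower without MYC/Gfi1 replicate 1. By DESeq2, 7 rose and 6 fell in the N1ICD tumours against the MYC/Gfi1 tumours, 6 rose and 4 fell against the S100b-cell tumours, and 11 rose in the S100b-cell tumours against the MYC/Otx2 tumours, where a fit of the 2 groups alone gave 16. Of the genes each tested, DESeq2 called 20.9%, 8.98% and 25% in these comparisons, and that fit called 33.9% in the last. By limma-voom 7 rose in the N1ICD tumours against the MYC/Otx2 tumours. The 13 rises numbered 8 without MYC/Otx2 replicate 1 and 7 without MYC/Otx2 replicate 3, the 7 rises numbered 4 without either of these, and the 4 falls numbered 1 without any one MYC/Otx2 library. Calls over all genes, in either direction, moved as well without MYC/Otx2 replicate 1 and 3. They went from 21.8% to 10.9% and 11.3% in the N1ICD tumours and from 17.9% to 8.58% and 7.89% in the S100b-cell tumours, each against the MYC/Otx2 tumours. Between the MYC/Otx2 and the MYC/Gfi1 tumours they went from 5.46% to 0.573% and 0.43%. Against the MYC/Gfi1 tumours, the 2 rises in the N1ICD tumours numbered 1 without N1ICD replicate 2 and 0 without MYC/Gfi1 replicate 2, and the 2 falls numbered 1 without N1ICD replicate 1 or 3. Against the S100b-cell tumours the 2 falls numbered 1 without N1ICD replicate 3 and 0 without S100b-cell replicate 2 or 3, and against the MYC/Otx2 tumours 2 fell without N1ICD replicate 2. Without either MYC/Gfi1 library 1 fell in the S100b-cell tumours against the MYC/Otx2 tumours. The list was written with earlier results of these data known.

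Gadd45b, a stress sensor of the growth arrest family, averaged 24 ± 10.8 CPM in the N1ICD tumours, 11.9 ± 4.29 CPM in the S100b-cell tumours, 1.2 ± 0.54 CPM in the MYC/Otx2 tumours (SD, n = 3 each) and 11.5 ± 1.61 CPM in the MYC/Gfi1 tumours (SD, n = 2). It rose by 4.31 ± 0.55 in the N1ICD tumours and by 3.31 ± 0.53 in the S100b-cell tumours against the MYC/Otx2 tumours (log2, SE, edgeR adjusted p = 0.00138 and 0.00443), under every setting tried. Cebpb, a leucine zipper factor of the acute response, had 37.7, 44.3 and 33.7 CPM in the N1ICD tumours, 87.2, 91.3 and 120 CPM in the S100b-cell libraries, 11.4, 9.59 and 9.71 CPM in the MYC/Otx2 tumours, and 69 and 59.1 CPM in the MYC/Gfi1 tumours. Its groups did not overlap. Cebpb rose by 1.91 ± 0.23 in the N1ICD tumours and by 3.28 ± 0.24 in the S100b-cell tumours against the MYC/Otx2 tumours (log2, SE, edgeR adjusted p = 0.00107 and 1.63e-04). In the MYC/Otx2 tumours it fell by 2.64 ± 0.25 against the MYC/Gfi1 tumours (log2, SE, edgeR adjusted p = 0.00237). The calls of Cebpb against the MYC/Otx2 tumours, and between both constitutive groups, held under every setting tried.

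Per1, a clock gene that is also induced as an early gene, was low in the N1ICD tumours, as Dusp1 was. It had 10.7, 6.97 and 7.3 CPM in the N1ICD tumours, 26.4, 44.3 and 52.9 CPM in the S100b-cell libraries, 57.5, 40.2 and 40.3 CPM in the MYC/Otx2 tumours, and 31.7 and 35.6 CPM in the MYC/Gfi1 tumours. The N1ICD libraries lay below all others, and the 3 remaining groups overlapped. Per1 fell in the N1ICD tumours by 2.47 ± 0.34 against the MYC/Otx2 tumours, by 2.31 ± 0.34 against the S100b-cell tumours and by 2.02 ± 0.36 against the MYC/Gfi1 tumours (log2, SE, edgeR adjusted p = 0.00178, 0.0187 and 0.0111). Against the S100b-cell tumours the call was lost without S100b-cell replicate 2 or 3, by limma-voom and in a fit of the 2 groups alone (adjusted p between 0.0595 and 0.0921). Against the MYC/Gfi1 tumours it was lost by limma-voom and in a fit of the 2 groups alone, which called 0.122% of the genes tested.

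Of genes known as AP-1 targets in other tissues, several were highest in the N1ICD tumours, among them Cd44 and Ccnd1. Of 12 tested, 5 rose and 0 fell in the N1ICD tumours and in the S100b-cell tumours, each against the MYC/Otx2 tumours, where 12% of all genes rose in the N1ICD tumours and 10% in the S100b-cell tumours. Their median log2 change was 2.96 in the N1ICD tumours, against 0.14 over all genes, and 2.37 in the S100b-cell tumours, against 0.17. Of the 12, in the N1ICD tumours, 4 rose against the MYC/Gfi1 tumours and 1 against the S100b-cell tumours, where 5.47% and 0.808% of all genes rose, and 0 fell in either. In the MYC/Otx2 tumours 2 fell against the MYC/Gfi1 tumours, where 3.03% of all genes fell. EdgeR called 0 in the S100b-cell tumours against the MYC/Gfi1 tumours, where it called 4.35% of all genes, with an unadjusted p under 0.05 for 4, against 23.7% of all genes. There DESeq2 called 3 higher and limma-voom 0, where they called 13.7% and 9.14% of the genes each tested, and edgeR called 1 higher without N1ICD replicate 1. Against the MYC/Otx2 tumours 1 fell in the N1ICD tumours without MYC/Gfi1 replicate 1 and 2 fell without MYC/Gfi1 replicate 2. Without MYC/Gfi1 replicate 2 the 4 rises in the N1ICD tumours numbered 1. The single rise against the S100b-cell tumours was lost without N1ICD replicate 3, MYC/Otx2 replicate 2 or any S100b-cell library, and the 2 falls numbered 0 or 1 without any one library other than N1ICD replicate 1. Cd44, a receptor for hyaluronan, averaged 189 ± 82.1 CPM in the N1ICD tumours, 68.6 ± 17.5 CPM in the S100b-cell tumours, 8.15 ± 2.42 CPM in the MYC/Otx2 tumours (SD, n = 3 each) and 25.8 ± 18 CPM in the MYC/Gfi1 tumours (SD, n = 2). It rose by 4.53 ± 0.52 in the N1ICD tumours and by 3.07 ± 0.49 in the S100b-cell tumours against the MYC/Otx2 tumours (log2, SE, edgeR adjusted p = 9.13e-04 and 0.00418). Tgfb1, a secreted growth regulator, rose by 4.84 ± 0.52 and 3.49 ± 0.49 in the N1ICD and the S100b-cell tumours, each against the MYC/Otx2 tumours (log2, SE, edgeR adjusted p = 7.25e-04 and 0.00237). Ccnd1, which encodes cyclin D1 and is also a target of other pathways, had 293, 163 and 313 CPM in the N1ICD tumours, 51.2, 20.9 and 34.7 CPM in the S100b-cell libraries, 2.68, 6.85 and 8.67 CPM in the MYC/Otx2 tumours, and 10 and 4.65 CPM in the MYC/Gfi1 tumours. The MYC/Otx2 and MYC/Gfi1 libraries of Ccnd1 overlapped at low levels. The calls of Cd44 and Tgfb1 against the MYC/Otx2 tumours held under every setting tried.

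**Figure D4:**
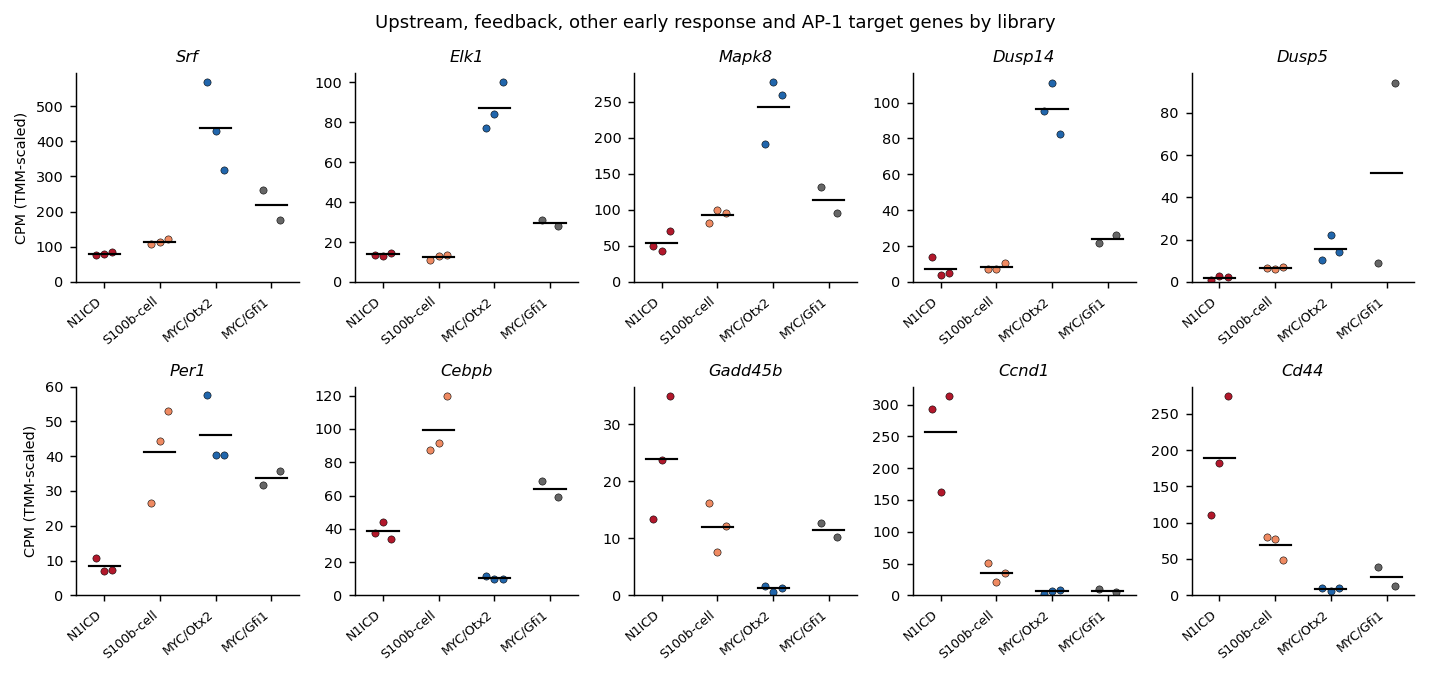
CPM of 10 genes that act around AP-1 (panels, y axes differ) in every library, grouped by model, with 1 point per library and a bar at the group mean. The upstream genes Srf, Elk1 and Mapk8 and the phosphatase gene Dusp14 are highest in the MYC/Otx2 tumours, while Cebpb, Gadd45b and Cd44 are lowest there.

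Of 6 partners and targets of the Egr factors, 3 passed the filter and were tested. Against the MYC/Otx2 tumours 1 rose and 0 fell in the N1ICD tumours (Nab1), where 12% of all genes rose, and 1 rose and 1 fell against the MYC/Gfi1 tumours (Nab1 and Pmp22), where 5.47% rose and 6.05% fell. In the other 4 comparisons edgeR called 0 of the 3 tested, where it called 1.21 to 17.9% of all genes. An unadjusted p under 0.05 was found there for 1 gene at most. DESeq2 called up to 2 in a comparison, where it called 8.98 to 25% of the genes it tested. Single members were also called there by edgeR without N1ICD replicate 1. Nab1, a corepressor that binds Egr proteins, averaged 902 ± 615 CPM in the N1ICD tumours, 144 ± 37.2 CPM in the S100b-cell tumours, 84.8 ± 5.54 CPM in the MYC/Otx2 tumours (SD, n = 3 each) and 130 ± 89.1 CPM in the MYC/Gfi1 tumours (SD, n = 2). It rose in the N1ICD tumours by a log2 change of 3.41 ± 0.64 against the MYC/Otx2 tumours (SE, edgeR adjusted p = 0.00667), under every setting tried. Its rise there by 2.8 ± 0.73 against the MYC/Gfi1 tumours (log2, SE, edgeR adjusted p = 0.0374) was no longer called without any one library other than N1ICD replicate 1 and S100b-cell replicate 1. Pmp22, which encodes a myelin protein of peripheral nerve, averaged 9.2 ± 6.86 CPM in the N1ICD tumours, 18.3 ± 2.59 CPM in the S100b-cell tumours, 24.4 ± 13.2 CPM in the MYC/Otx2 tumours (SD, n = 3 each) and 43 ± 2.08 CPM in the MYC/Gfi1 tumours (SD, n = 2). It fell by 2.22 ± 0.62 on the log2 scale in the N1ICD tumours against the MYC/Gfi1 tumours (SE, edgeR adjusted p = 0.0456), a call lost without any one library other than N1ICD replicate 3 and MYC/Otx2 replicate 3.

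Some genes that respond to heat and to handling were higher in the N1ICD and the S100b-cell tumours than in the MYC/Otx2 tumours. Of 10 tested, 4 rose in the N1ICD tumours and 3 in the S100b-cell tumours against the MYC/Otx2 tumours, where 12% and 10% of all genes rose, with median log2 changes of 1.3 and 0.95, against 0.14 and 0.17 over all genes, and 1 fell in the MYC/Otx2 tumours against the MYC/Gfi1 tumours, lost without MYC/Gfi1 replicate 2 or any one MYC/Otx2 library. Against the MYC/Gfi1 tumours 1 rose in the N1ICD tumours, lost without N1ICD replicate 2 or MYC/Gfi1 replicate 2, and 1 rose in the S100b-cell tumours, lost without MYC/Gfi1 replicate 2 or any one S100b-cell library. Over all genes 3.03% fell in the MYC/Otx2 tumours, 5.47% rose in the N1ICD tumours and 2.34% rose in the S100b-cell tumours, each against the MYC/Gfi1 tumours. The summed level of the 10 heat and handling genes was 2480 to 3210 CPM in the N1ICD tumours, 2850 to 3600 CPM in the S100b-cell tumours, 1480 to 2050 CPM in the MYC/Otx2 tumours, and 2020 and 2140 CPM in the MYC/Gfi1 tumours. Ddit3, a factor of the unfolded protein response, averaged 5.65 ± 0.808 CPM in the N1ICD tumours, 17.4 ± 1.19 CPM in the S100b-cell tumours, 1.19 ± 0.726 CPM in the MYC/Otx2 tumours (SD, n = 3 each) and 4.93 ± 1.43 CPM in the MYC/Gfi1 tumours (SD, n = 2). It rose by 3.85 ± 0.54 in the S100b-cell tumours and by 2.23 ± 0.52 in the N1ICD tumours against the MYC/Otx2 tumours (log2, SE, edgeR adjusted p = 0.00235 and 0.0164), and the N1ICD call was lost without MYC/Otx2 replicate 3. The part of handling in the levels of the early genes was not tested.

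Markers of other cell types were called in the same comparisons. Against the MYC/Otx2 tumours, 8 of 9 pericyte and smooth muscle markers, 3 of 8 endothelial markers and 2 of 3 granulocyte and red cell markers tested rose in the N1ICD tumours, where 12% of all genes rose and 9.76% fell. There 1 of 11 microglia and macrophage and 1 of 8 astroglia markers rose, while 1 of each and 1 of 8 neuron markers fell. In the S100b-cell tumours against the MYC/Otx2 tumours, 2 of 7 fibroblast and meningeal markers and 2 of 11 microglia and macrophage markers rose. So did 1 of 8 endothelial, 1 of 9 pericyte and smooth muscle and 1 of 6 oligodendrocyte and Schwann cell markers, while 1 of 8 astroglia markers fell. Over all genes 10% rose there and 7.89% fell. Summed microglia and macrophage markers ran from 171 to 281 CPM in the N1ICD tumours, 627 to 908 CPM in the S100b-cell tumours, 135 to 451 CPM in the MYC/Otx2 tumours, and were at 570 and 790 CPM in the MYC/Gfi1 tumours. Summed pericyte and smooth muscle markers ran from 277 to 6750 CPM in the N1ICD tumours, 111 to 212 CPM in the S100b-cell tumours, 66.4 to 137 CPM in the MYC/Otx2 tumours, where Myh11 was at 0, and were at 56.3 and 147 CPM in the MYC/Gfi1 tumours. Summed neuron markers ran from 87.6 to 182 CPM in the N1ICD tumours, 124 to 574 CPM in the S100b-cell tumours, 190 to 552 CPM in the MYC/Otx2 tumours, and were at 756 and 3200 CPM in the MYC/Gfi1 tumours. Of the 8 neuron markers 4 fell in the N1ICD tumours and 2 in the S100b-cell tumours, each against the MYC/Gfi1 tumours, where 6.05% and 2.01% of all genes fell. In the N1ICD tumours 6 of 9 pericyte and smooth muscle markers rose against the MYC/Gfi1 tumours, where 5.47% of all genes rose. There 4 of 11 microglia and macrophage and 2 of 6 mature granule cell markers fell. So did 1 of 8 astroglia, 1 of 6 oligodendrocyte and Schwann cell and 1 of 5 lymphocyte markers. In the S100b-cell tumours against the MYC/Gfi1 tumours 1 of 6 oligodendrocyte and Schwann cell markers fell. In the MYC/Otx2 tumours against the MYC/Gfi1 tumours 1 of 8 neuron and 1 of 7 fibroblast and meningeal markers fell. So did 1 of 6 oligodendrocyte and Schwann cell and 1 of 5 lymphocyte markers, where 3.03% of all genes fell. The part of these cell types in the levels of the AP-1 and immediate early genes was not tested.

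**Figure D5:**
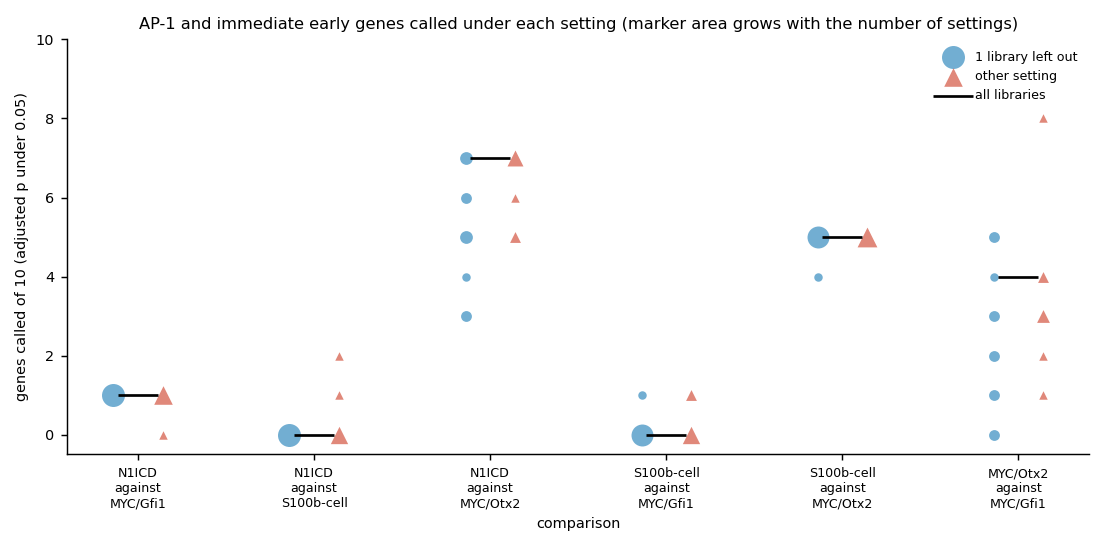
Number of the 10 genes called (y axis, adjusted p under 0.05) in each of the 6 comparisons (x axis). The black bar is the count with all libraries, circles leave out 1 library each, triangles are the other settings, and larger marks stand for more settings. The 5 calls of the S100b-cell tumours against the MYC/Otx2 tumours moved between 4 and 5, while those of the MYC/Otx2 tumours against the MYC/Gfi1 tumours moved between 0 and 8.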

How the data were processed

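Gene expression was measured in 11 libraries of mouse cerebellar tumours in 4 groups by title. Per the labels' protocols, total RNA was isolated from fresh frozen tumours with TRIzol and sequenced as 3′ mRNA tags (QuantSeq, forward kit) with unique molecular identifiers. The submitters' processing notes name STAR 2.4.1d, HTSeq 0.6.1 and mm10. No source used here gives the strand setting, the annotation release or the use of the identifiers. Raw counts per gene symbol, not normalized by the authors, fill the deposited table.

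Counts of all 11 libraries were fitted together by group with edgeR 4.0.16 (R 4.3.3; filterByExpr, TMM scaling, robust glmQLFit, two-sided glmQLFTest), because 1 group had 2 libraries. In each comparison the Benjamini-Hochberg adjustment ran over all 15228 genes that passed the filter. CPM uses the TMM-scaled totals of these genes, and the SE of a log2 change is its size divided by the root of its F statistic. Common dispersion corresponded to a biological coefficient of variation of 0.562, and the fit had 7 residual degrees of freedom. In counts simulated at the real library sizes, each of the 15228 genes had the same mean in every group, except a small set that was changed. Of the genes changed 8-fold, 46 to 65% were recovered over the 6 comparisons. The number of changed genes differs from that in the data, so this share does not give the power of the tests reported here. DESeq2 1.42.0, limma 3.58.1 (voom), other scalings and filters, a replicate block, a fit of the 2 groups alone and fits without each library were alternatives.

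The 10 genes, the lists and the tests were chosen with earlier results of these data known. Each of the 10 genes was named throughout. From each list at most 3 called genes, by smallest p, and 2 uncalled genes, by highest CPM, could be named. Positions come from a GENCODE annotation (GRCm38) and promoters from RefSeq (GRCm38.p6), in which all of the 9 genes looked up were found by symbol, with starts for Jund and Fosl2 away from those in GENCODE. No 2 libraries of a group were copies of the same counts (chi-square per degree of freedom 22.6 to 138). A few genes that these rules would name are not reported here.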

Additional observations from a re-analysis of the deposited data

How the results depend on the processing

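Of 21 log2 changes of the AP-1 and immediate early genes, 398 alternative values were computed, of which 334 kept the direction and side of the threshold, 55 kept the direction but no longer passed, 9 newly passed and 0 reversed. For 53 log2 changes of other named genes, 845 of 1004 alternative values kept both, 159 no longer passed and 0 reversed. The number of the 10 genes called moved as follows. Without a low-count filter it was 1 for the N1ICD against the S100b-cell tumours. DESeq2 called 2 there, 1 for the S100b-cell against the MYC/Gfi1 tumours and 8 for the MYC/Otx2 against the MYC/Gfi1 tumours, and limma-voom called 1 for the S100b-cell against the MYC/Gfi1 tumours. A fit of the 2 groups alone called 0 for the N1ICD and 1 for the MYC/Otx2 tumours, each against the MYC/Gfi1 tumours. Of the genes each tested, edgeR called 11.5%, DESeq2 20.9% and that fit 0.122% for the N1ICD against the MYC/Gfi1 tumours. In the same order they called 1.21%, 8.98% and 0.636% for the N1ICD against the S100b-cell tumours, and 4.35%, 13.7% and 0% for the S100b-cell against the MYC/Gfi1 tumours. For the MYC/Otx2 against the MYC/Gfi1 tumours the shares were 5.46%, 16% and 2.71%.

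Leaving out 1 library at a time gave 1 called in each case for the N1ICD against the MYC/Gfi1 tumours, 0 in each case for the N1ICD against the S100b-cell tumours and 3 to 7 for the N1ICD against the MYC/Otx2 tumours. It gave 0 to 1 for the S100b-cell against the MYC/Gfi1 tumours, 4 to 5 for the S100b-cell against the MYC/Otx2 tumours, 0 to 5 for the MYC/Otx2 against the MYC/Gfi1 tumours and 5 to 9 for any difference among the 4 groups. Where this leaves a group with 1 library, that library is assumed to vary like the other groups. The share of all genes called moved as well. For the MYC/Otx2 against the MYC/Gfi1 tumours it went from 5.46% to 0.573%, 1.53% and 0.43% without MYC/Otx2 replicate 1, 2 and 3.

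The labels do not say that replicate numbers pair libraries. Over 15 same-numbered pairs the correlation of deviations from group means ran from -0.16 to 0.17, with 3 over 0.1. The deviations within a group sum to 0 over few libraries, so these values cannot decide whether the numbers pair libraries. With the replicate block 2 genes, Jund and Dusp1, were called for the MYC/Otx2 against the MYC/Gfi1 tumours, where it called 1.37% of all genes. With it 6 were called for the N1ICD against the MYC/Otx2 tumours, without Fosl2, where it called 14.5% of all genes. Of the 53 log2 changes of other named genes, 15 no longer passed with the block, among them Per1 in the N1ICD against the S100b-cell tumours (adjusted p = 0.0565), Batf3 in the N1ICD against the MYC/Otx2 tumours (0.0545) and Mafg in the S100b-cell against the MYC/Gfi1 and the MYC/Otx2 tumours (0.11 and 0.0749). At the depth of the N1ICD libraries Fos rests on 12 to 20 counts and Egr2 on 15 to 34 counts per library. 

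The counts of pathway lists under these alternatives were added after the data were seen, and the values here moved by more than 1.5 times. They are to be read beside the shares of all genes given above. By limma-voom these were 6.66% for the N1ICD against the MYC/Gfi1 tumours, 14.6% for the N1ICD against the MYC/Otx2 tumours and 9.04% for the MYC/Otx2 against the MYC/Gfi1 tumours. For the N1ICD against the MYC/Gfi1 tumours, DESeq2 called 7 other immediate early genes higher and 6 lower, against 2 and 2 by edgeR, and 5 upstream genes lower, against 3, while the fit of the 2 groups alone called 0 in each of these lists, 0 AP-1 targets higher, against 4, and 0 feedback inhibitors lower, against 3, as did limma-voom for the inhibitors. For the N1ICD against the S100b-cell tumours, DESeq2 called 6 other immediate early genes higher and 4 lower, against 0 and 2, 4 AP-1 targets higher, against 1, and 2 upstream genes higher, against 0. For the N1ICD against the MYC/Otx2 tumours, limma-voom called 7 other immediate early genes higher, against 13, and 1 feedback inhibitor lower, against 3. For the S100b-cell against the MYC/Gfi1 tumours, DESeq2 called 3 other immediate early genes, 3 feedback inhibitors and 5 upstream genes lower, against 0, 0 and 1, and 3 AP-1 targets higher, against 0. For the S100b-cell against the MYC/Otx2 tumours, the fit of the 2 groups alone called 16 other immediate early genes higher, and DESeq2 11, against 7. For the MYC/Otx2 against the MYC/Gfi1 tumours, DESeq2 called 8 other immediate early genes lower, the block 2 and the fit of the 2 groups alone 1, against 4, and DESeq2 and limma-voom called 3 upstream genes higher, against 1. Other such moves were of 1 to 3 genes.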
